A study of Mus musculus with 4 samples.

Results

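Chemokines are small secreted proteins that direct the movement of leukocytes, and their receptors are G protein-coupled receptors carried mainly by those leukocytes. The genes described here are all genes whose single annotated symbol is that of a numbered ligand (Ccl, Cxcl, Cx3cl or Xcl) or of a numbered receptor (Ccr, Cxcr, Cx3cr or Xcr). The symbols gave 49 of 18194 named genes, 33 ligands and 16 receptors. Where a gene had several probe sets (18 of the 49), the one whose 4-array mean was highest stands for it. Chemokine genes with other kinds of symbol, such as Pf4 and Ppbp, and the atypical receptors are described as a separate list.

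Liver RNA of 10-month-old mice was put on 4 arrays, 1 for each group. The groups were control diet without diethylnitrosamine (DEN), a diet with 0.2% cholic acid (CA) without DEN, DEN with control diet, and DEN with the CA diet. DEN is a carcinogen that starts liver tumours in mice, and CA is a primary bile acid. Each array held pooled livers of 3 to 5 mice, so that no difference could be tested and mouse-to-mouse spread is part of every difference. The labels state neither the strain, the sex and the DEN dose nor how much tumour each pool held. Of 7 hepatocyte markers 5 were measured and all 5 were far above the floor defined below. Alb read between 14.74 and 14.82, and the largest lower value among the 5 was that of Cps1 after DEN on the CA diet (-0.48).

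Inflammatory chemokines such as the CXCR3 ligands are induced by interferon-gamma, and CXCL1 and its relatives by NF-kB. In the liver, Kupffer cells, stellate cells, endothelial cells and hepatocytes can all make them. CXCR3 ligands draw activated T cells and NK cells, the CXCR2 ligands draw neutrophils, the CCR2 ligands draw monocytes, and CXCL12 retains cells that carry CXCR4.

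The bases just upstream of 5 genes described below are shown: the related CXCR2 ligands Cxcl1, Cxcl2 and Cxcl3, and the CXCR3 ligands Cxcl9 and Cxcl10. They are the 250 bases before the annotated start in RefSeq's GRCm38.p6, 5′ to 3′ on the gene's strand. Capitals mark matches to an NF-kB pattern (GGG and TTCC with any 3 bases between them) or an interferon-stimulated response element (ISRE) pattern (GAAA and GAAA with any 2 bases between them). Both strands were searched, and overlapping matches were joined. The windows are chr5:90890995-90891244 (plus strand), chr5:90903649-90903898 (plus strand), chr5:90785851-90786100 (plus strand), chr5:92328080-92328329 (minus strand) and chr5:92348890-92349139 (minus strand), in the order of the lines.
Cxcl1: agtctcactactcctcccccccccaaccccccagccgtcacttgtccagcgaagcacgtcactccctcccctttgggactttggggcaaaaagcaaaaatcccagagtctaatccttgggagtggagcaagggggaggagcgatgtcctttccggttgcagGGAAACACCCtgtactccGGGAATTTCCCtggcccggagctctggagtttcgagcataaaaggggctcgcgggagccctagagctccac
Cxcl2: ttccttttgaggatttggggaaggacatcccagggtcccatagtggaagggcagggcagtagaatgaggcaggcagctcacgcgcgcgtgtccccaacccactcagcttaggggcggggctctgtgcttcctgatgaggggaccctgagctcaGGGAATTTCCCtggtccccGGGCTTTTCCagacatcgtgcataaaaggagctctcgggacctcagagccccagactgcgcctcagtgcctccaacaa
Cxcl3: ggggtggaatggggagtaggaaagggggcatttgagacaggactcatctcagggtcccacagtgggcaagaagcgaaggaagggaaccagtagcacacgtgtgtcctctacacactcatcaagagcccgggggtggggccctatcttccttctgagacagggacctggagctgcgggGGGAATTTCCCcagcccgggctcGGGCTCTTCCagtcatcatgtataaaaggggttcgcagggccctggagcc
Cxcl9: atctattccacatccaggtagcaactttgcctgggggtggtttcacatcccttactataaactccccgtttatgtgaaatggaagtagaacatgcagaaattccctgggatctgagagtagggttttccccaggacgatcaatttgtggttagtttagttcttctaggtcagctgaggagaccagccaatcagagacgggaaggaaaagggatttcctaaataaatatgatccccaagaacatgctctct
Cxcl10: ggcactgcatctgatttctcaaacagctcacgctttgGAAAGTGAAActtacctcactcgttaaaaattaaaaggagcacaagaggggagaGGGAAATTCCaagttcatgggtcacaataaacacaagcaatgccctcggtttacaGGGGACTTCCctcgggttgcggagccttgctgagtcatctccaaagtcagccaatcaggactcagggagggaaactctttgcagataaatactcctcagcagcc

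Of 32851 windows of the same length in the RefSeq table, 4.65% held the NF-kB pattern and 2.98% the ISRE pattern. RefSeq gave such a window, or several, for 36 of the 49 genes, and a gene counted where any of them matched. The NF-kB pattern was in 9 of these 36 (25%), namely Cxcl1, Cxcl2, Cxcl3, Cxcl10, Ccl1, Ccl9, Ccl20, Ccr3 and Ccr6. The ISRE pattern was in 2 (5.56%), Cxcl10 and Cxcl14. The 25% and 5.56% are shares of genes, whereas the 4.65% and 2.98% are shares of windows. Genes with several windows, such as Ccr6, Ccl25 and Ccl27a, had more places for a match. Cxcl1, Cxcl2 and Cxcl3 carried the same run, GGGAATTTCC, whose first base lay at -71, -97 and -73 from the start. These 3 genes are related copies on chromosome 5, so their windows are not independent. The window of Cxcl9 held neither pattern. A match is a match of letters only.

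Expression values are on the log2 scale, where a difference of 1 is 2-fold. The floor used below is 4.855, the median over all probe sets of their means over the arrays. Of the 49 genes, 19 had a mean above it (38.8%), against 64% of all named genes. They were Cxcl1, Cxcl9, Cxcl10, Cxcl11, Cxcl12, Cxcl13, Cxcl14, Cxcl16, Cxcl17, Ccl2, Ccl4, Ccl5, Ccl6, Ccl8, Ccl9, Ccl24, Ccl25, Ccl27a and the receptor Ccr2. Thus 18 of 33 ligands and 1 of 16 receptors lay above the floor. The lowest mean above it was 5.24 (Cxcl14) and the highest mean below it 4.84 (Cx3cl1).

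The other 30 genes had a mean under the floor. Of these, 23 were under it on every array (2.31 to 4.79). They were the receptors Ccr1, Ccr3, Ccr4, Ccr7, Ccr8, Ccr9, Ccr10, Cxcr2, Cxcr3, Cxcr4, Cxcr5, Cxcr6, Cx3cr1 and Xcr1, and the ligands Ccl1, Ccl3, Ccl7, Ccl11, Ccl12, Ccl17, Ccl22, Cxcl5 and Xcl1. Another 7 reached it on at least 1 array, namely Cxcl2, Cxcl3, Cxcl15, Ccl20, Ccl28, Cx3cl1 and Ccr6. The deposited values come without a detection call, so a low value cannot be read as absence.

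Values under the floor were raised to it, and a gene then counted as different where the arrays lay 2-fold or more apart. A fold that involves a raised value is a lower bound and is written as "at least". All 49 genes were counted, whether above the floor or not. Over the 4 comparisons 9 genes differed by this measure, and all 9 were ligands. By the widest span over the 4 arrays, the same 9 of 49 genes reached 2-fold, against 1213 of 18194 named genes. The rule cannot count a gene that is under the floor on every array, which applies to 14 of the 16 receptors.

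**Figure D1:**
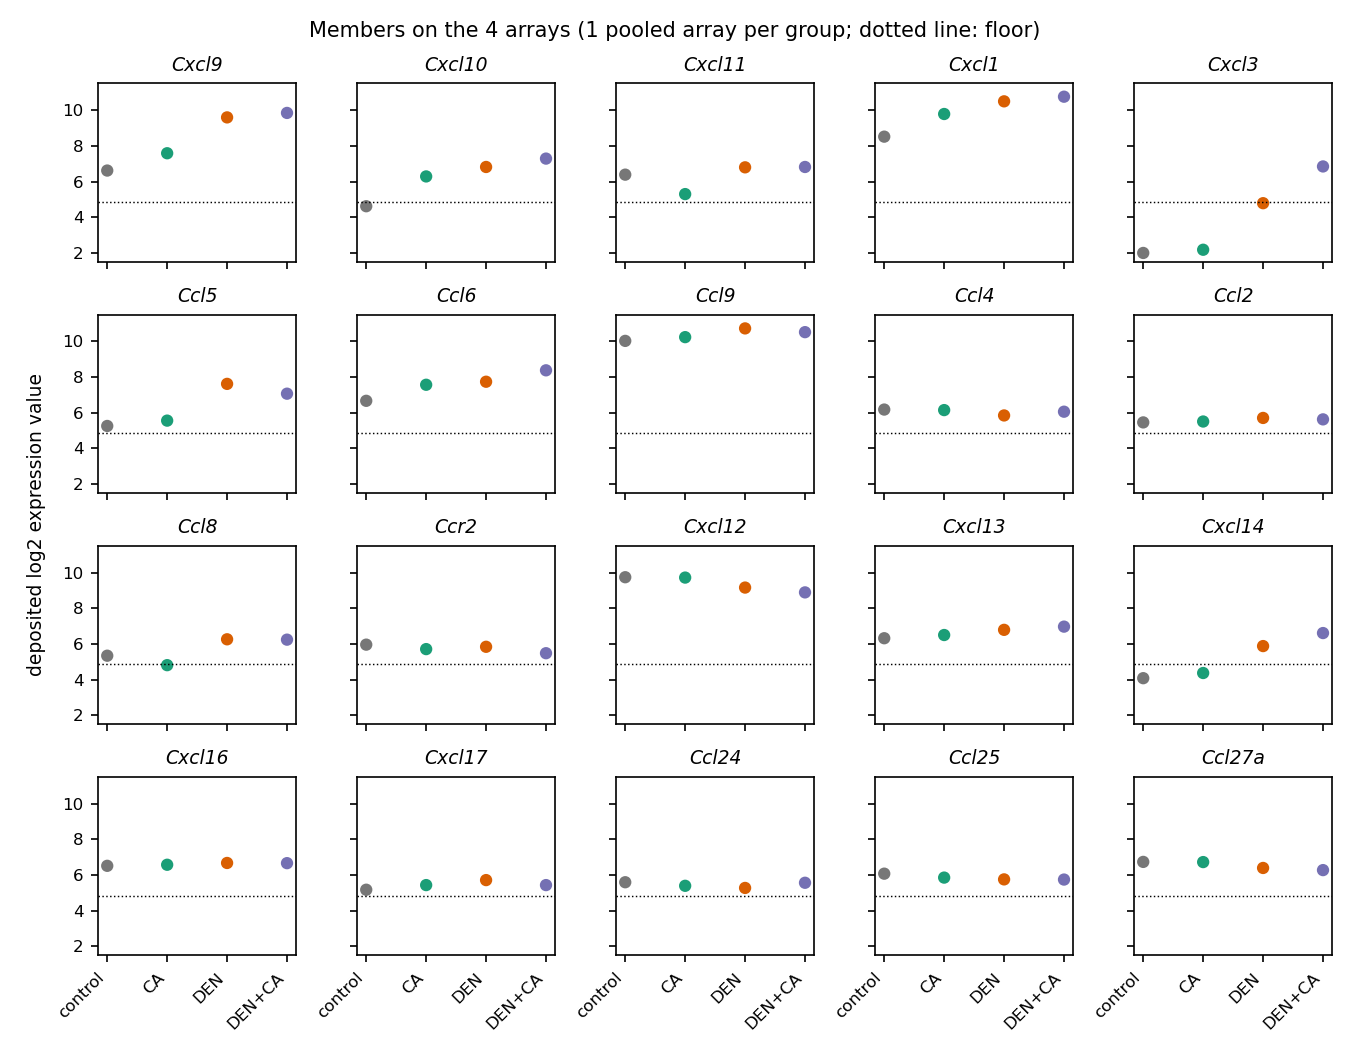
Deposited log2 expression values (vertical axis) of the 20 genes that lay above the floor or differed 2-fold, on the control, CA, DEN and DEN+CA arrays (horizontal axis, 1 point for each pooled array, no error because there is no replicate). The dotted line is the floor at 4.855. Cxcl9, Cxcl1, Ccl5 and Cxcl14 stand higher on both DEN arrays, Cxcl3 is above the floor on the DEN+CA array only, and Cxcl12 is lower on both DEN arrays.

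The CXCR3 ligands stood highest in the DEN pools. Cxcl9, the interferon-gamma-induced ligand, read 6.62 on the control diet, 7.59 on the CA diet, 9.60 after DEN and 9.85 after DEN with CA. Both DEN arrays were above both arrays without DEN, by 7.89-fold on the control diet and 4.78-fold on the CA diet. In whole liver, more cells of a type and more RNA per cell cannot be told apart. On the CA diet without DEN Cxcl9 was 1.96-fold higher, just under the 2-fold limit, and after DEN the diets differed by 1.19-fold. Its other probe set gave smaller differences in the same direction for DEN, 1.19 and 1.30 on the log2 scale, and 0.09 for the CA diet without DEN.

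Cxcl10, which signals through the same receptor, read 4.62, 6.29, 6.82 and 7.29 in the same order of arrays. The control-diet pool was the only pool under the floor, so that the CA diet pool was at least 2.70-fold higher and the DEN pool at least 3.91-fold higher. With the floor 1 log2 unit higher these log2 differences of 1.43 and 1.97 became 0.43 and 0.97, both under the limit. With DEN on the CA diet it was 2.01-fold higher, just past the limit, and the log2 difference of 1.01 became 0.96 with quantile normalization and 0.93 after median centring of the arrays. The CA diet differed by 1.39-fold after DEN.

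Cxcl11, the remaining CXCR3 ligand, had another order. It read 6.39 on the control diet, 5.30 on the CA diet, 6.80 after DEN and 6.82 after DEN with CA. The CA diet pool without DEN was thus the low one, 2.13-fold under the control diet, and DEN on the CA diet was 2.87-fold higher. RefSeq's GRCm38.p6 annotation, which is of the C57BL/6J strain, lists Cxcl11 as a transcribed pseudogene, and the strain of these mice is not given. Its other probe set stayed under the floor on every array (3.07 to 3.54) and showed none of these differences, and the mean over both gave -0.01 for the CA diet and 0.26 for DEN on it. With the floor 1 log2 unit higher they were -0.54 and 0.97. The receptor gene Cxcr3 read 4.79, 4.43, 4.70 and 4.54, all under the floor.

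The CXCR2 ligands Cxcl1, Cxcl2 and Cxcl3 had their highest value in the pool with both treatments. Whether the upstream patterns above bear on any of these values was not tested. Cxcl1, a neutrophil attractant, read 8.52, 9.79, 10.50 and 10.76 on the control, CA, DEN and DEN with CA arrays. It was 2.41-fold higher on the CA diet and 3.93-fold higher after DEN on the control diet. On the CA diet DEN made a difference of 1.95-fold, and after DEN the diets differed by 1.20-fold. The control pool was the lowest on each of its 3 probe sets, although 1 of the other probe sets gave 0.69 for the CA diet without DEN, under the limit. The names of that probe set (x_at) and of the one used (s_at) mark probes that can bind related transcripts, so a share from relatives of Cxcl1 was not tested.

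Cxcl3 was the only one of the 49 genes counted as different between the diets after DEN. It read 2.0, 2.18, 4.79 and 6.85, so that 1 array, that of DEN with CA, was above the floor. That array was at least 3.98-fold higher than the DEN pool on the control diet and at least 3.98-fold higher than the CA pool without DEN. As deposited, without the floor, the log2 difference between the diets after DEN was 2.06. With the floor 1 log2 unit higher both differences became 0.99, just under the limit. The gene has 1 probe set, so this cannot be compared with another one.

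Cxcl2 read 2.81, 4.16, 4.06 and 4.89 and only just reached the floor on the array with both treatments. Cxcl5, an attractant of the same group, read 2.31, 2.52, 3.70 and 2.59 and stayed under it. Cxcl15 reached the floor only on the CA diet array (4.41, 4.88, 4.21 and 4.19). Cxcr2, the receptor of these ligands, read between 4.08 and 4.24. Of the 10 neutrophil markers listed, 8 were measured. S100a8 and S100a9 were at least 2.53-fold and at least 2.86-fold higher after DEN on the control diet, while the granulocyte receptor Csf3r differed by 0.07 and Mpo, Ltf and Camp were under the floor on every array. The part of neutrophils in the Cxcl1 and Cxcl3 values was not tested.

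Among the inflammatory CC chemokines, Ccl5 and Ccl6 differed 2-fold. Ccl5, a T cell and monocyte attractant made by T and NK cells among others, read 5.26, 5.56, 7.62 and 7.07. Both DEN pools were above both pools without DEN, by 5.14-fold on the control diet and 2.86-fold on the CA diet. The DEN pool on the control diet was the higher of the DEN pools, by 1.46-fold. Ccl6, a myeloid chemokine, read 6.67, 7.57, 7.74 and 8.38. The control pool was lowest and the pool with both treatments highest, and of the 4 differences that of DEN on the control diet reached 2-fold (2.09-fold). Its log2 difference of 1.07 became 0.97 with quantile normalization and 0.90 after median centring, and a second probe set gave 0.98.

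Ccl9, a relative of Ccl6 that also lies on chromosome 11, read 10.03, 10.24, 10.73 and 10.52. In the 4 comparisons it differed by at most 1.63-fold (DEN on the control diet). Ccl4 read 6.18, 6.15, 5.85 and 6.06, with no difference above 1.26-fold in the 4 comparisons. Ccl3 and the receptor Ccr1 were under the floor on every array.

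Genes listed here as chemokines for monocytes differed among themselves. Ccl2, the main CCR2 ligand, read 5.46, 5.51, 5.71 and 5.63, a range of pools within 1.19-fold. Ccl8, a relative of Ccl2 on chromosome 11, read 5.34, 4.81, 6.26 and 6.24. Which receptor and which cells it acts on in mice was not examined. Both DEN pools were above both pools without DEN, by 1.88-fold on the control diet and at least 2.62-fold on the CA diet. With the floor 1 log2 unit higher the latter, 1.39 on the log2 scale, became 0.39. Ccl7 and Ccl12 were under the floor throughout. Ccr2, the only receptor above the floor, read 5.96, 5.71, 5.84 and 5.48 and differed by at most 1.28-fold in the 4 comparisons. Its 4 probe sets did not move together, since another one gave at least 0.86 for DEN on the control diet where the one used gave -0.11. As deposited that other probe set went from 4.59, under the floor, to 5.71, a log2 difference of 1.12. Cx3cl1 read between 4.65 and 5.03 and Cx3cr1 between 4.27 and 4.67.

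Cxcl12, the homeostatic chemokine of stromal and endothelial cells, was the gene lowest against its controls in both DEN comparisons. It read 9.74, 9.72, 9.16 and 8.89. Both DEN pools were below both pools without DEN, by 1.5-fold on the control diet and 1.77-fold on the CA diet, so neither reached 2-fold. A second probe set gave -0.67 and -0.88 on the log2 scale, and the remaining one was under the floor on every array. Its receptor Cxcr4 read 3.34, 3.30, 3.74 and 3.73. The atypical receptor Ackr3, which removes CXCL12, read 3.28, 3.52, 4.70 and 5.00 and thus reached the floor only with both treatments.

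Of the other ligands above the floor, Cxcl14, an epithelial chemokine, read 4.08, 4.37, 5.88 and 6.61. Only the DEN pools were above the floor, and the DEN pool was at least 2.04-fold higher on the control diet and at least 3.38-fold higher on the CA diet. On the control diet the log2 difference of 1.03 became 0.98 with quantile normalization, 0.94 with each array centred and 0.03 with the floor 1 log2 unit higher. Its other probe set showed the opposite sign for DEN, -0.34 and -0.10, with values from 4.86 to 5.19. Cxcl13, the B cell attractant of lymphoid follicles, read 6.32, 6.5, 6.79 and 6.97. None of the 4 comparisons reached 1.5-fold on the probe set used, but another gave 0.96 for the CA diet without DEN and 1.13 for DEN on the control diet.

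The remaining ligands above the floor lay closer together. Cxcl16, the ligand of CXCR6, read 6.52, 6.58, 6.68 and 6.67. The mucosal chemokine Cxcl17 read 5.18, 5.44, 5.72 and 5.44. Ccl24, an eosinophil attractant, read 5.60, 5.40, 5.28 and 5.57. Ccl25, known for homing to the small intestine, read 6.08, 5.86, 5.76 and 5.75, and Ccl27a, known from skin, read 6.74, 6.73, 6.40 and 6.28. The probe set of Ccl27a is also of the x_at kind. On the probe sets used, none of these 5 genes differed by more than 1.45-fold in the 4 comparisons. The other probe set of Cxcl16 read 6.22, 6.38, 6.81 and 6.80, a log2 difference of 0.59 for DEN on the control diet where the one used gave 0.16. The other probe set of Ccl25 turned the sign, with 0.18 for the CA diet without DEN and 0.22 for DEN on the control diet against -0.21 and -0.31.

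Values of the genes under the floor are given as deposited and carry little weight, since no detection call separates them from background. Ccl20, the CCR6 ligand, read 4.60, 4.71, 4.94 and 5.07, and its receptor gene Ccr6 read 4.87, 4.91, 4.53 and 4.56. Both DEN pools were thus the higher ones for the ligand and the lower ones for the receptor, and no difference in the 4 comparisons was over 0.36 on the log2 scale. Ccl3, a CCR1 ligand, read 3.38, 3.73, 4.03 and 3.92, and Ccr1 read 4.02, 4.36, 4.65 and 4.23. Cxcr6, the receptor of Cxcl16 on T and NKT cells, read 3.47, 3.93, 4.24 and 4.03, lowest in the control pool.

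Ccr7, which guides cells to lymph nodes, read from 4.08 on the control diet to 4.40 with both treatments, and Cxcr5, the receptor of Cxcl13, from 3.09 to 3.50. The type 2 ligands Ccl17 and Ccl22 read from 4.36 to 4.70 and from 3.93 to 4.33, and their receptor gene Ccr4 from 3.32 to 3.69. Xcl1, a product of T and NK cells, read 3.84, 3.52, 3.84 and 3.85, and Xcr1, the receptor of cross-presenting dendritic cells, from 2.76 to 3.17.

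The diet without DEN was the comparison with 2 genes higher, Cxcl1 and Cxcl10, and 1 lower, Cxcl11. These are 4.08% and 2.04% of the 49 genes, where the same rule counted 0.346% of all named genes as higher and 0.357% as lower. The median log2 difference of the 49 genes was 0.05 (all genes 0). DEN on the control diet had 6 of 49 genes higher (12.2%), Ccl5, Ccl6, Cxcl1, Cxcl9, Cxcl10 and Cxcl14, and 0 lower. Among all named genes 3.07% were higher and 0.561% lower. The median was 0.19 (all genes -0.02).

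The diet after DEN had 1 of 49 genes higher (2.04%), Cxcl3, and 0 lower, against 0.203% and 0.286% of all named genes. The median was -0.01 (all genes 0). DEN on the CA diet had 7 of 49 genes higher (14.3%), Ccl5, Ccl8, Cxcl3, Cxcl9, Cxcl10, Cxcl11 and Cxcl14, and 0 lower, against 2.95% and 1.08%. The median was 0.11 (all genes -0.01). These shares rest on 1 to 7 genes that are partly neighbouring copies, and no test was made. Each array enters 2 of the 4 comparisons, so the counts are not independent of each other.

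**Figure D2:**
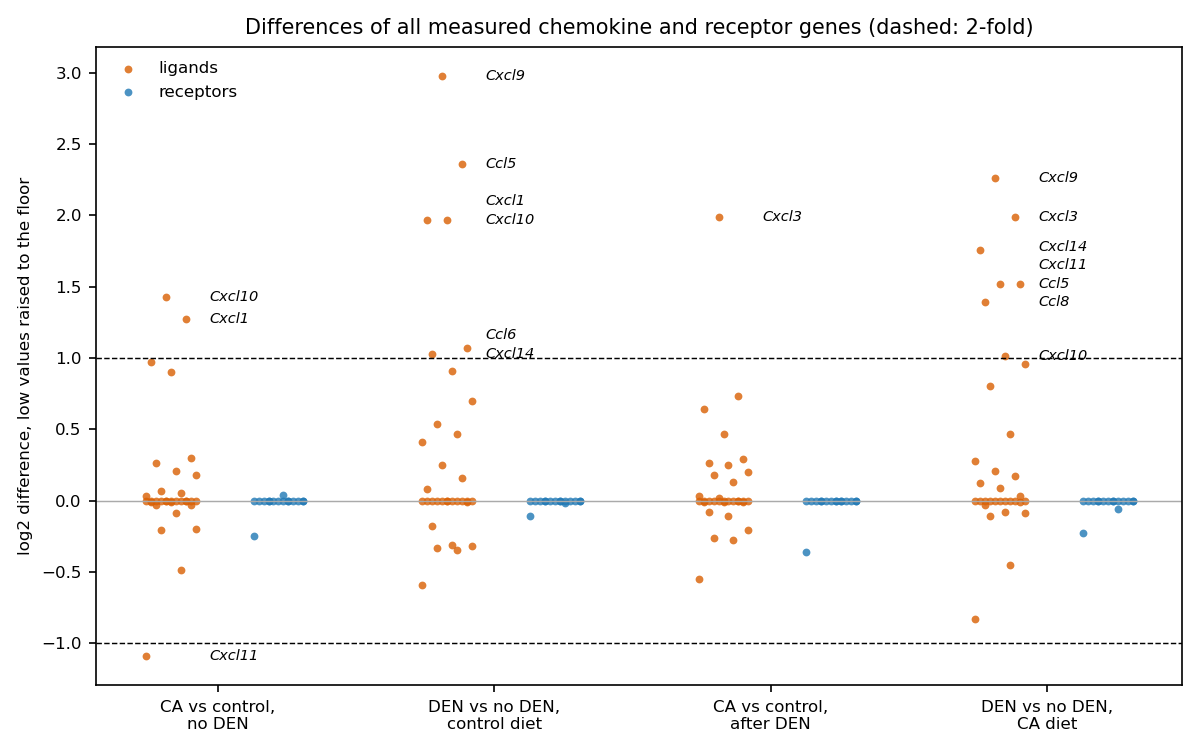
Log2 differences (vertical axis, low values raised to the floor) of the 33 ligands and 16 receptors in the 4 comparisons (horizontal axis), 1 point for each gene, with genes beyond the dashed 2-fold lines named. The receptors lie between -0.36 and 0.04, most at 0 because they are under the floor, while ligands reach 2.98 (Cxcl9, DEN on the control diet).

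**Figure D3:**
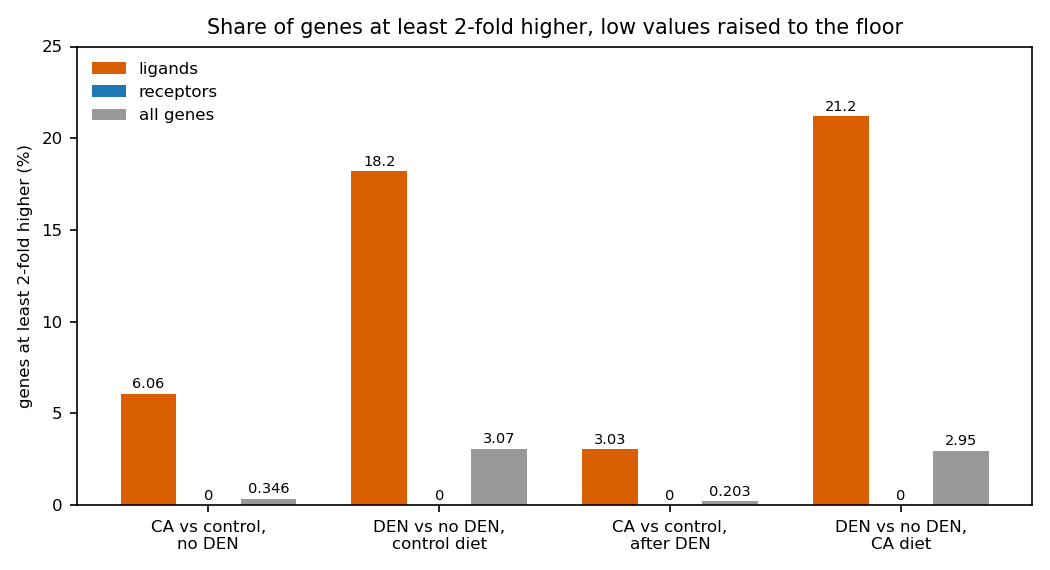
Percentage of ligands (33), receptors (16) and all named genes (18194) that were at least 2-fold higher in each comparison, from 1 array a group. Ligands stand at 6.06%, 18.2%, 3.03% and 21.2% from left to right, receptors at 0, and all genes between 0.203% and 3.07%.

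Split by role, the ligands had medians of 0.11, 0.31, -0.01 and 0.13 in the order CA without DEN, DEN on the control diet, CA after DEN and DEN on the CA diet. The 16 receptors had medians of -0.08, -0.10, -0.01 and 0.09 on the deposited values. On the probe sets used, the largest size among receptors was 0.76, for Cxcr6 after DEN on the control diet, from 3.47 to 4.24, which is under the floor.

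The difference between the diet effects, after DEN minus without DEN, was computed on the deposited values. Among genes above the floor on every array it was 1.11 for Cxcl11 and -1.01 for Cxcl1, whose diets lay further apart without DEN than after it. The other probe set of Cxcl11, under the floor, gave diet effects of -0.26 without DEN and -0.14 after it. For Cxcl1 the other probe sets gave 1.46 and 0.34, and 0.69 and 0.06. Among hybridization controls the difference between the diet effects reached a size of 0.572. The values of Cxcl3 (1.88), Cxcl10 (-1.19) and Cxcl5 (-1.33) rest on arrays under the floor, which are 3, 1 and 4 of their 4 arrays, and are not ranked. The median of the 49 genes was -0.10 (all genes -0.01). With 1 array a group these are values of 4 pools, and no test of the difference was possible.

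**Figure D4:**
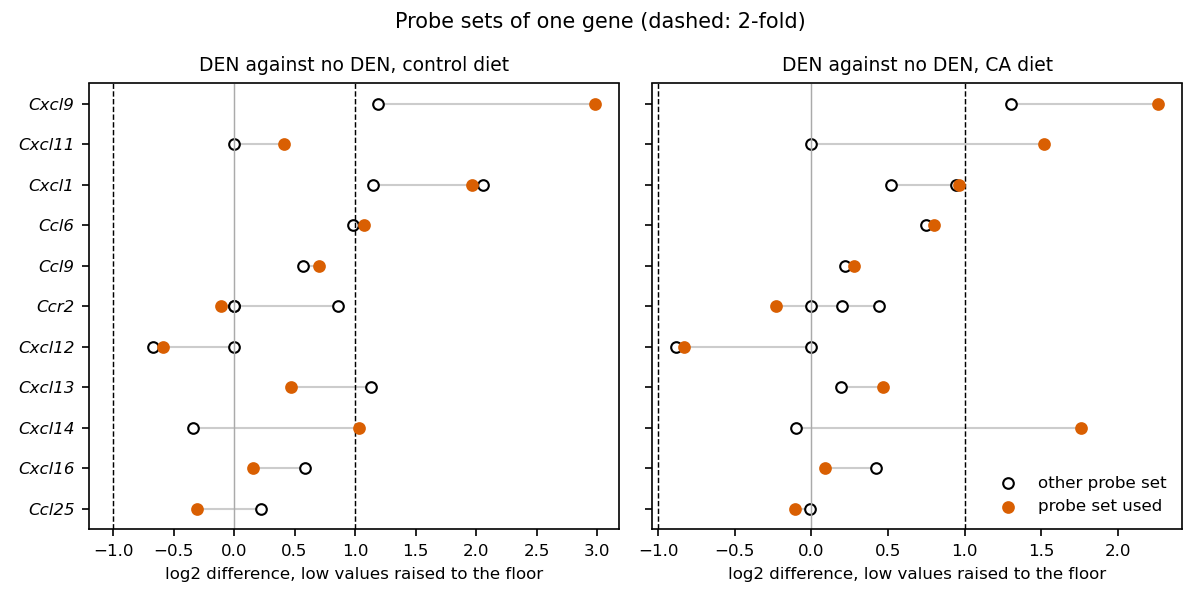
Log2 differences of DEN against no DEN (horizontal axes, low values raised to the floor) on the control diet (left) and the CA diet (right) for the 11 genes above the floor with several probe sets. Filled points are the probe set used and open points the others. All probe sets of Cxcl9, Cxcl1, Ccl6 and Ccl9 lie above 0, whereas those of Cxcl14 lie on both sides of 0.

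Chemokines and atypical receptors outside the symbol rule showed no 2-fold difference after low values were raised to the floor. Of 13 listed genes 12 were measured, and 0 differed 2-fold in any of the 4 comparisons. Pf4, the platelet chemokine, read 5.89, 5.80, 6.70 and 6.34, and Rarres2, the precursor of the attractant chemerin, read between 12.18 and 12.44. Ppbp, another platelet chemokine, read 3.87, 4.21, 5.02 and 4.88. As deposited, from values under the floor, the log2 difference of DEN on the control diet was 1.14 for Ppbp and 1.42 for Ackr3. On the CA diet that of Ackr3 was 1.48.

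Among 25 measured genes of chemokine receptor signalling, 4 were at least 2-fold higher after DEN on the control diet and 0 lower. The same rule counted 3.07% of all named genes as higher and 0.561% as lower. This list and the lists below were chosen with earlier results of these data known. Their counts beside the shares of all genes therefore cannot show an excess. Rgs2, which shortens G protein signals, was 9.63-fold higher, and Rasgrp2, the activator of the integrin switch RAP1, 4.42-fold higher. The receptor kinase gene Grk3 was 4.03-fold higher and the leukocyte integrin gene Itgb2 2.74-fold higher. On the CA diet Rgs2, Rasgrp2 and Grk3 were higher after DEN by 4.74-fold, 4.30-fold and 5.76-fold. There the rule counted 2.95% of all named genes as higher. Neither diet comparison had a gene of this list at 2-fold.

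Of 22 measured cytokines and factors known to induce chemokines, 4 were at least 2-fold higher on the CA diet without DEN and 0 lower. They were Fos (14.2-fold), Jun (3.25-fold), Egr1 (3.19-fold) and Irf7 (2.01-fold). After DEN on the control diet 4 were higher (Egr1, Fos, Jun and Tnfaip3), and on the CA diet 3 were higher (Egr1, Jun and Relb) and Cebpb lower. Fos was the only one higher on the CA diet after DEN. Of all named genes 0.346% were higher on CA without DEN, 3.07% with DEN on the control diet, and 0.203% on CA after DEN. With DEN on the CA diet 2.95% were higher and 1.08% lower. Ifng, Tnf, Il6, Il17a and Rel were under the floor on every array, and Il1b read 5.47, 5.39, 5.63 and 6.35. The NF-kB inhibitor gene Nfkbia read 11.19, 11.59, 10.86 and 10.90. In the list of heparan sulphate and protease genes, 1 of 13 measured genes differed in both DEN comparisons and in the diet comparison after DEN. This was Mmp12, a macrophage elastase that can cut chemokines, which read 3.96, 5.14, 5.90 and 7.01.

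Marker lists of the cells that can make or carry these proteins were read on the same arrays, as sums of linear levels. All 11 markers of Kupffer cells and macrophages were above the floor, with a summed linear level of 3738 on the control diet, 5755 on the CA diet, 7375 after DEN and 10237 after DEN with CA. The sum is led by its most abundant genes, and the markers had no single order. Cd14, Cd68, Lyz2, Mpeg1 and Csf1r were higher after DEN than on the CA diet without DEN, while the other 6 (Adgre1, Cd5l, Clec4f, Marco, Timd4 and Vsig4) were lower there. The Kupffer cell markers Clec4f and Timd4 read the same with and without DEN on the control diet (8.0 and 5.11). In the order of comparisons above, 1, 4, 1 and 3 of the 11 were 2-fold higher, Cd14 in 3 of the 4 comparisons. The shares of all named genes that were higher were 0.346%, 3.07%, 0.203% and 2.95%. The sums of 8 dendritic cell and MHC class II markers were 785, 1037, 2533 and 2489, and Cd74, H2-Aa, H2-Ab1 and H2-Eb1 were 2-fold higher in both DEN comparisons. These are the MHC class II genes of the list. Its dendritic cell genes Flt3, Zbtb46, Itgax and Cd209a differed by -0.14, -0.12, 0.33 and 0.29 for DEN on the control diet. On the CA diet they differed by -0.13, 0.10, 0.07 and 0.30. The 11 measured T and NK cell markers summed to 301, 298, 359 and 375, with 0 of them at 2-fold after raising low values. Cd2, Cd8b1, Gzmb and Ncr1 were under the floor on every array. As deposited, from values mostly under the floor, Gzma differed by 1.07 and 1.21 for DEN on the control and CA diet. Nkg7 differed by 0.98 and 1.08, Cd3g by 1.11 and 0.41 and Cd3d by 0.36 and 1.11, while Cd3e, Cd4 and Ncr1 were lower in both. Without DEN, Nkg7 (4.23 and 4.08) and Cd3g (4.19 and 4.29) were under the floor, and so was Cd3d on the CA diet (4.72). Of Gzma, Nkg7, Cd3g and Cd3d, only Cd3g on the CA diet (4.71) was under it after DEN. Neutrophil markers summed to 262, 284, 369 and 438, and cholangiocyte markers to 119, 143, 2822 and 3650 (Tspan8 alone read 3.69, 3.92, 11.38 and 11.75, while Cftr and Krt7 were under the floor). Sox9 was at least 2.29-fold higher after DEN on the control diet and 2.88-fold higher on the CA diet. Epcam differed by -0.05 and 0.11 there, and Krt19, raised to the floor, by 0.09 and 0. The B and plasma cell markers summed to 1444, 1335, 1964 and 1558, most of it Sdc1 (10.33, 10.19, 10.67 and 10.36), which is also in the heparan sulphate list and not particular to these cells. Jchain, the joining chain of secreted antibodies, was 5.32-fold higher after DEN on the control diet, and Cd79a, Ms4a1 and Pou2af1 were under the floor on every array. Stellate and fibroblast markers summed to 3135, 3441, 4570 and 4052, and endothelial markers to 1465, 1524, 1741 and 2085. Of these, Acta2, Col3a1 and the endothelial Lyve1 were 2-fold higher in both DEN comparisons, while Dcn and Lrat were lower in both. The part of these cells in the chemokine values was not tested.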

How the data were processed

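The authors deposited log2 expression values, for which the submitters' processing notes name RMA and Partek 6.5 without options. The labels name a FlashTag biotin kit, a kind known for labelling microRNA, and do not say how the target for this mRNA array was made from the RNA, a doubt that applies to every value. RMA makes the distributions of arrays alike, so a shift of most genes would be removed. 4 arrays with 45101 probe sets were used, 1 for each group, with medians from 4.843 to 4.865 and a largest difference of 18 hybridization control probe sets of 0.203 to 0.370 in the 4 comparisons. Their number limits the precision, and no test was made.

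The platform annotation gave 34958 probe sets 1 symbol and 932 several, and 9211 had none. Probe sets with several symbols name no gene here. All 49 symbols matched the RefSeq annotation of GRCm38.p6 by gene identifier. A gene took its probe set with the highest mean. Values under 4.855 were raised to it before a gene was counted from 2-fold on. All genes above this floor, and all counted ones, are named with their values. The members and lists were chosen with earlier results of these data known. Listed genes without a probe set of their own are not analysed here. A summed linear level is the sum of 2 to the power of the log2 values. The steps were tested on simulated data. Alternatives were no floor, a higher floor, only genes above the floor, a 1.5-fold limit, quantile normalization, centring on the median, the mean over probe sets and every probe set alone. Values were computed with Python 3.11.15 and pandas 2.3.3.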

Additional observations from a re-analysis of the deposited data

Results flagged for a closer look

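Cxcl11 differed in sign between the diet effects. On the CA diet it stood at -1.09 on the log2 scale without DEN and at 0.02 after DEN, and the difference between them was not tested, since each is the difference of 2 pooled arrays. The second value is smaller than the largest difference among hybridization controls in that comparison (0.267), and the other probe set of Cxcl11 was under the floor on every array.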

How the results depend on the processing

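With 1 array a group, no array could be left out. No paired analysis was possible because each group has 1 sample. Centring each array on its median over genes above the floor shifted the comparisons by -0.04 (CA without DEN), -0.16 (DEN on the control diet), 0.04 (CA after DEN) and -0.08 (DEN on the CA diet). Under it and under quantile normalization, 14 of 17 gene differences that reached 2-fold still did. Over the mean of all probe sets 13 did, and with the floor 1 log2 unit higher 8 did. Of 11 values from another probe set of these genes 5 reached 2-fold, and Cxcl14 turned to -0.34 and -0.10 for DEN on the control and CA diet; the cause was not tested.

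For CA without DEN, the count of 2 higher became 4 at the 1.5-fold limit and 1 with the higher floor, and the count of 1 lower became 0 with the higher floor and 0 with the mean over probe sets. For DEN on the control diet, the 6 higher became 10 among 77 probe sets counted alone, the 0 lower became 1 at 1.5-fold (Cxcl12), and the median of 0.19 became 0.47 over the 19 genes above the floor, among them Cxcl14, which is above it in the DEN pools only. For CA after DEN, the 1 higher became 3 at 1.5-fold and 0 both with the higher floor and over genes above the floor only, since Cxcl3 has a mean under it. The 0 lower became 1 with nothing raised to the floor (Cxcl5). For DEN on the CA diet, the 7 higher became 3 with the higher floor, and the 0 lower became 1 at 1.5-fold (Cxcl12). Counts that moved by exactly 1.5 times were the 6 higher for DEN on the control diet, which became 9 with nothing raised to the floor and 4 under quantile normalization, under centring and with the higher floor, and the 2 higher for CA without DEN, which became 3 with nothing raised and with every probe set alone. Centring brought the medians of both DEN comparisons from 0.19 to 0.03 and from 0.11 to 0.02. The remaining counts moved by less than 1.5 times, and the remaining medians by less than the hybridization controls.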
